A study of Mus musculus with 48 samples.

Results

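Chromatin modifiers and remodelers are the proteins that write, erase and read marks on histones and DNA, or that slide and evict nucleosomes. Their expression was measured in cell populations purified from developing and adult mouse pancreas. A gene was included if it had a probe carrying its symbol alone and if that symbol fell in one of 13 families (Kdm, Kmt, Setd, Chd, Smarc, Hdac, Sirt, Dnmt, Tet, Cbx, Ezh, Prmt and Brd). The rule uses names and no measured value. It found 107 of the 18194 genes with such a probe, covered by 264 probes, and a gene with several probes was read from the one brightest on average across all 48 arrays. Of these genes, 104 exceeded 100 on the linear scale in at least 1 array and could be tested. Dnmt3l, Kdm4d and Prmt8 never did. All values are log2 expression from the authors' RMA normalization, so that a difference of 1 is a 2-fold change.

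All mice were on a CD-1 background. The wild-type populations were E11.5 progenitors (n = 4), purified through a Sox9-eGFP transgene and labelled Sox9, E15.5 progenitors (n = 3), E15.5 acinar cells (n = 3) and E15.5 endocrine progenitors (n = 3). The E15.5 cells came from pooled pancreata carrying a Neurog3-eGFP transgene and were sorted by GFP and surface antigens. Beta cells were sorted by GFP under the mouse insulin promoter at E15.5 (n = 4), E17.5 (n = 3), P0 (n = 3), P15 (n = 4) and 8-12 weeks (n = 4). Alpha cells were sorted by Venus under the glucagon promoter at P0 (n = 4) and 8-12 weeks (n = 5), and duct cells were sorted at 8-12 weeks (n = 4) by a surface antigen. The mutant population was E15.5 Neurog3-null cells (n = 4), which carry eGFP in both Neurog3 alleles and were collected by that GFP. Their titles give the stage as E1.5 and their stage label as E15.5. Replicates were sorts of pooled animals, and the labels do not say what the replicate numbers share. P-values therefore measure the spread between these sorts, and the number of arrays limits the precision.

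Every one of the 48 arrays correlated best with an array of its own population, and array medians lay between 6.58 and 6.88. Neurog3 averaged 13.40 in endocrine progenitors and 10.57 in Neurog3-null cells, a difference of 2.83 (adjusted p = 9.8e-09). The markers of the labelled cell types were present, with a mean of 13.36 for 4 acinar genes in acinar cells and 12.82 for 3 duct genes in duct cells, but they were not exclusive. For 4 beta cell genes the mean was 13.28 to 13.97 in beta cells and 13.32 in P0 alpha cells, and for 2 alpha cell genes 12.55 and 12.66 in alpha cells and 10.73 to 12.60 in beta cells. Genes of other cells were also high in some populations. Averaged over 10 genes of macrophages and leukocytes, the level was 12.11 in Neurog3-null cells, 12.13 in adult beta cells and 12.23 in adult duct cells, against 5.15 to 6.37 in E11.5 progenitors, E15.5 progenitors, acinar cells, endocrine progenitors and adult alpha cells. Endothelial markers averaged 9.78 in E17.5 beta cells, 10.73 in P0 beta cells and 9.14 in P0 alpha cells, and 4.97 to 6.48 in the others apart from acinar cells (9.02). The methods give male mice for P15 and adult islet cells, but Xist, transcribed from the inactive X chromosome of females, went against this in P15 beta cells. It measured 12.41, 11.84, 10.70 and 10.93 there and 10.59 in adult beta cell replicate 1, against 5.65 to 5.97 in the other 3 adult beta cell arrays, while the Y-linked Eif2s3y lay between 10.91 and 11.91 in all 8. The parts of sex in the results were not tested. In bulk sorts like these, fewer cells of a type and less RNA per cell cannot be told apart.

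Histone methylation is written by enzymes such as the Kmt, Setd and Ezh proteins and removed by the Kdm demethylases. Acetyl groups are removed by the Hdac and Sirt deacetylases and read by the Brd bromodomain proteins. Dnmt enzymes methylate cytosine in DNA and Tet enzymes oxidize the methyl group, a step toward its removal. The Cbx proteins read methylated histones, Prmt enzymes methylate arginine, and the Chd and Smarc proteins include ATP-driven motors that move nucleosomes. Neurog3 encodes the transcription factor that commits pancreatic progenitors to the endocrine lineage, and its targets include genes through which a cell leaves the cell cycle and becomes an islet cell.

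Most of these genes varied between populations. Over the 12 wild-type populations, 86 of the 104 tested members varied (limma F test, adjusted p under 0.05, with at least a 2-fold range of the means), against 87% of all 14405 genes tested. The share among chromatin genes was thus slightly under that of all genes, a difference that was not tested. All 7 tested Sirt genes, all 3 tested Dnmt genes, all 3 Tet genes and both Ezh genes varied. So did 12 of 13 Smarc, 15 of 17 Kdm, 9 of 10 Chd, 9 of 11 Hdac, 6 of 7 Prmt, 5 of 6 Brd, 5 of 7 Cbx, 5 of 8 Kmt and 5 of 10 Setd genes. Smarca1, an imitation-switch ATPase, had the widest range of population means at 5.26, followed by Chd5 at 4.42, Ezh2 at 3.91 and Tet1 at 3.91. The narrowest range was 0.50, for Hdac8. Of the 86 members that varied, 21 had their highest mean in endocrine progenitors, 13 in E11.5 progenitors and 11 in P0 alpha cells. None had its lowest mean in endocrine progenitors, while 15 had it in adult duct cells. Highest and lowest populations were not counted over all genes, so these counts cannot be read as particular to chromatin genes.

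**Figure D1:**
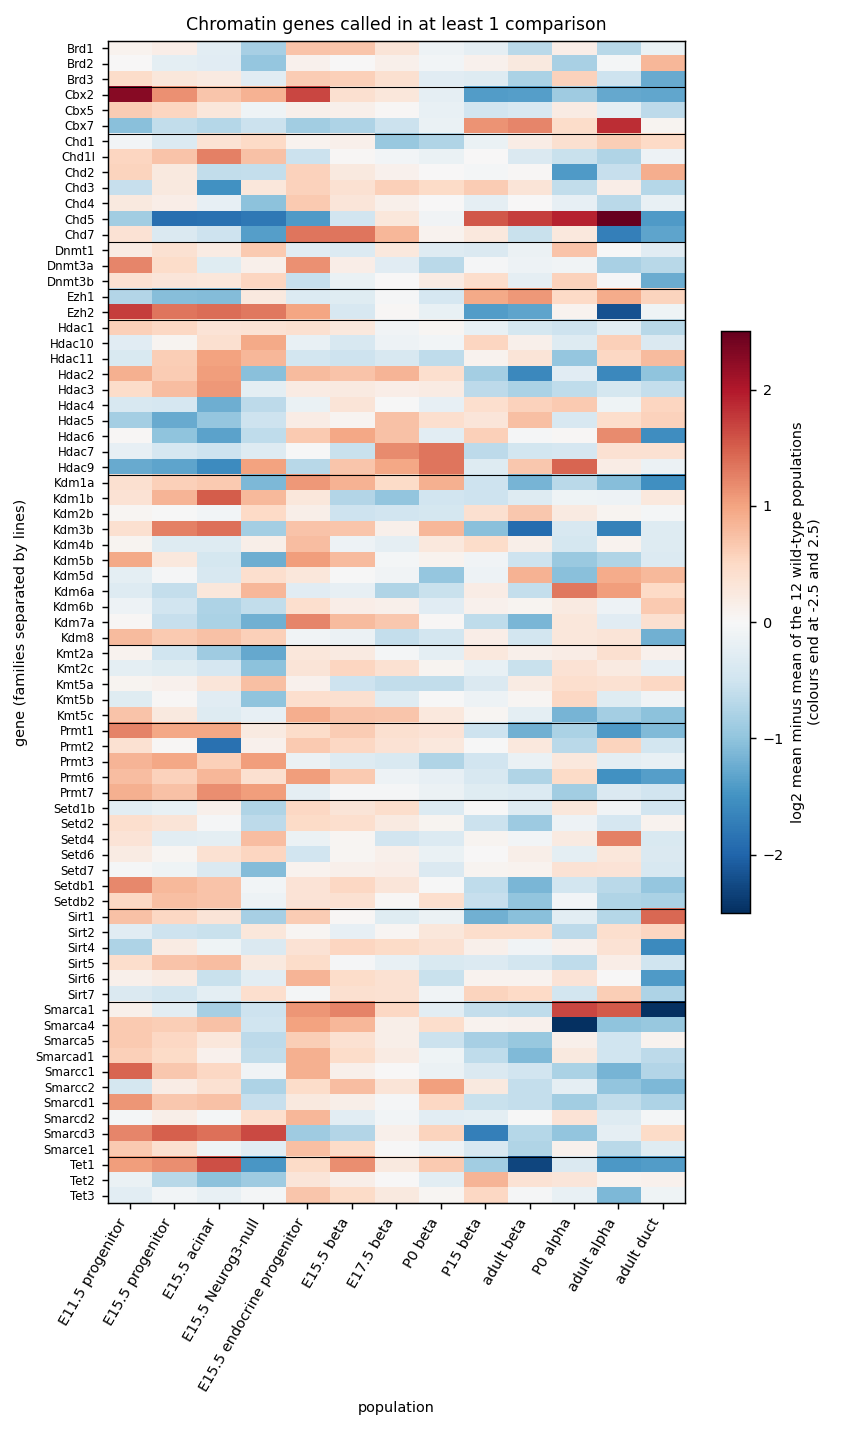
Mean log2 expression of the 75 chromatin genes called in at least 1 comparison, each minus its own mean over the 12 wild-type populations (red higher, blue lower), with populations in columns and families separated by lines. Tet1, Ezh2 and Cbx2 are red in the embryonic progenitors and blue in adult beta cells, while Cbx7 and Chd5 show the opposite.

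In the comparisons that follow, a gene was called at a limma adjusted p under 0.05 with at least a 2-fold difference, and a positive difference means a higher level in the later-named population.

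The passage from E11.5 to E15.5 progenitors, which asks what changes as multipotent cells become restricted, involved few of these genes. No member was higher at E15.5, against 6.25% of all genes, and 3 were lower, against 7.3%. Cbx2, a Polycomb reader of histone H3 lysine 27 methylation, measured 10.19, 10.38, 10.42 and 10.56 at E11.5 and 9.20, 9.12 and 9.43 at E15.5. No E15.5 value reached the lowest one at E11.5, and the difference was -1.14 (SE 0.21, adjusted p = 4.6e-05). Hdac6, a deacetylase that acts largely in the cytoplasm, fell by 1.05 to a mean of 10.45. Chd5, a remodeler known mainly from neurons, differed by -1.01 from 5.95 to 4.94, where both means lie under the linear value of 100, so the size is not exact, and the call was lost without E11.5 replicate 1 or E15.5 progenitor replicate 1 or 3 (-0.99 to -0.84). Without E15.5 progenitor replicate 2, 6 members were called. Of 97 tested related genes, which are partner subunits, acetyltransferases, further methyltransferases and genes listed as DNA methylation partners, 4 were higher and 1 lower. Markers of endocrine cells moved as well, with 3 of 4 beta cell and 2 of 2 alpha cell genes lower at E15.5 (medians -3.04 and -5.57) and 3 of 3 duct genes higher (2.06), and their part in the members' differences was not tested. Gadd45b, which acts in DNA repair and demethylation, rose by 2.70 and Actl6b, a neuronal BAF subunit, fell by 2.43.

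Acinar cells differed from E15.5 progenitors in even fewer members. None was higher in acinar cells, against 4.63% of all genes, and 2 were lower, against 7.06%. Prmt2, an arginine methyltransferase, measured 10.91, 10.68 and 11.13 in progenitors and 9.06, 9.29 and 8.65 in acinar cells. The acinar values lay below the means of all 12 other populations, and the difference of -1.91 (SE 0.20, adjusted p = 1.4e-09) was called for 2 of 2 probes. Chd3, a motor subunit of the NuRD corepressor, measured 9.08, 8.82 and 9.74 in progenitors against 7.58, 7.28 and 7.48, with no overlap and a difference of -1.77 (SE 0.25, adjusted p = 9.7e-07). Endothelial markers were higher in the acinar sort for 8 of 8 genes and mesenchymal markers for 3 of 8, and their part in these differences was not tested. Of the 97 related genes, only Gadd45a was called, at -2.59.

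More members were called at entry into the endocrine lineage than in either comparison above. From E15.5 progenitors to endocrine progenitors 6 rose, against 10.7% of all genes, and 4 fell, against 11.8%, so that both shares of members lay under those of all genes (9.62% of members in all), a difference that was not tested. The median difference of the 104 members was 0.28, beside -0.03 for all 14405 genes. The members that rose were Kdm7a, Chd7, Hdac6, Hdac5, Smarca1 and Kdm4b, and those that fell were Smarcd3, Chd1l, Prmt3 and Hdac11. Over the same step 8 of 9 proliferation markers fell, with a list mean of 12.02 in progenitors (11.92 at the lowest array) and 10.13 in endocrine progenitors. Mesenchymal markers rose for 6 of 8 genes, from a list mean of 7.66 to 9.36. The parts of both lists were not tested.

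Chd7 encodes a nucleosome remodeler that binds enhancers and is mutated in CHARGE syndrome. It measured 10.28, 10.05 and 10.02 in E15.5 progenitors and 11.87, 11.92 and 11.63 in endocrine progenitors. All endocrine progenitor values lay above all progenitor values, with a difference of 1.69 (SE 0.24, adjusted p = 3.4e-07) and 2 of 2 probes called. E15.5 beta cells overlapped with endocrine progenitors, at 11.96, 11.84, 11.67 and 11.72, and the difference between them was -0.01 (SE 0.23). Acinar cells, at 10.20, 9.49 and 10.16, overlapped with progenitors apart from replicate 2, which was lower, the difference being -0.17 (SE 0.24).

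Kdm7a, a demethylase of repressive lysine methylation, measured 9.88, 9.58 and 10.41 in progenitors and 11.69, 11.79 and 11.81 in endocrine progenitors. Again no progenitor reached the endocrine progenitors, and the difference was 1.80 (SE 0.39, adjusted p = 0.00025). Of its 5 tested probes 3 were called higher (1.80 to 2.38), while the other 2 gave -0.66 and -0.78, and the mean of its probes gave 0.99, just short of 2-fold. Kdm5b, which removes methyl groups from histone H3 lysine 4, measured 10.48, 10.33 and 10.68 against 11.27, 11.30 and 11.25. All endocrine progenitor values lay above and the adjusted p was 0.00053, but the difference of 0.78 (SE 0.18) was under 2-fold and was not called, while 2 of its 4 probes were.

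Smarcd3 encodes the BAF60c subunit of the BAF remodeling complex, best known from heart and muscle. It fell most, from 10.49, 10.26 and 10.51 in progenitors to 7.79, 7.73 and 8.59 in endocrine progenitors, a difference of -2.39 (SE 0.26, adjusted p = 1.2e-09). E15.5 beta cells were also low, at 8.25, 8.23, 7.98 and 8.36, while acinar cells kept 10.38, 10.51 and 10.04. In contrast, the microtubule deacetylase Hdac6 rose from 10.45 to 12.12 (difference 1.67, SE 0.15) and the class II deacetylase Hdac5 from 7.74 to 9.19 (1.45, SE 0.20). Kdm4b, a lysine 9 demethylase, rose by 1.10 and slipped under 2-fold without E15.5 progenitor replicate 1 (0.987) or endocrine progenitor replicate 3 (0.995). Among the 97 related genes 6 were higher and 6 lower. Actl6b rose by 2.79 and Gadd45a by 2.47, and Uhrf1, which brings Dnmt1 to replicating DNA, and Suv39h2, a lysine 9 methyltransferase, fell by 2.39 and 1.82.

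The upstream sequences of Kdm5b and Smarcd3 are printed because these genes differed in opposite directions between Neurog3-null cells and endocrine progenitors, as described next. Each is the 250 bases before the annotated start in RefSeq on GRCm38.p6, 5′ to 3′ on the strand of the gene, with CpG dinucleotides in capitals. The Kdm5b window is chr1:134559928-134560177 on the plus strand and the Smarcd3 window is chr5:24602003-24602252 on the minus strand.
Kdm5b: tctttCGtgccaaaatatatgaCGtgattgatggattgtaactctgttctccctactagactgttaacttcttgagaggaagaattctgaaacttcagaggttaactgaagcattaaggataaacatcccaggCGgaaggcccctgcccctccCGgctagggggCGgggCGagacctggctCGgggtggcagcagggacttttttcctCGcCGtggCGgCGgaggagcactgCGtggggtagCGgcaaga
Smarcd3: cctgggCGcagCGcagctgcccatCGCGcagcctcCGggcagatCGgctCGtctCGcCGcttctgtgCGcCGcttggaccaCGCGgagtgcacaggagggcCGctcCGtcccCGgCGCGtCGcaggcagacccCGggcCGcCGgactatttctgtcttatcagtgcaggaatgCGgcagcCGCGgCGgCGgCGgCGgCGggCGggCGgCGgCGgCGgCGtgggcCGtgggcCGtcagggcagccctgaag
The Kdm5b window held 13 CpG and the Smarcd3 window 38. Windows of this length were at hand for 89 of the 107 members (121 windows, as some genes have several starts), with a median of 20 CpG, beside 6 over all 32851 windows. Motifs were searched on both strands. CAGATG, a sequence bound by proneural factors, was in 14.44% of all windows and in 6.61% of the members' windows. Neither printed window holds it, which says only that these letters are not there.

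**Figure D2:**
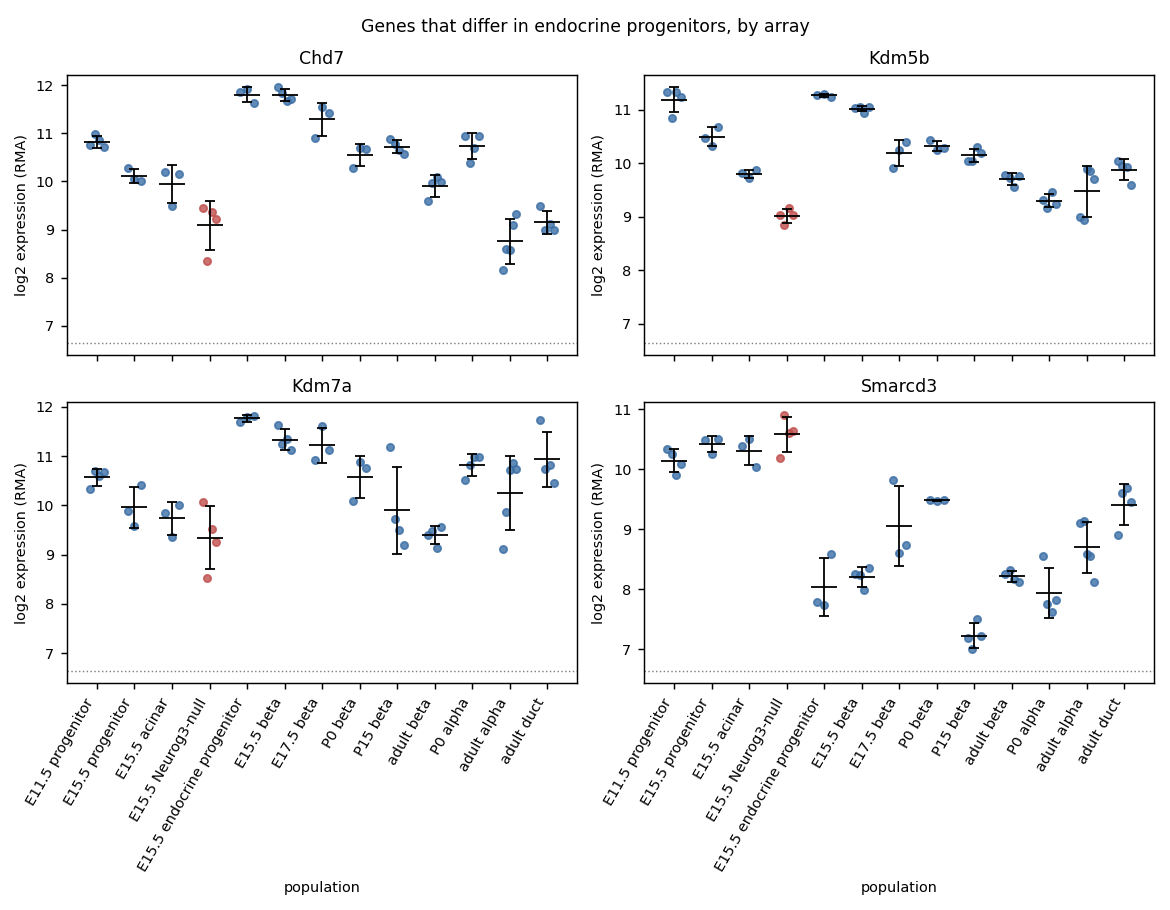
Log2 expression of Chd7, Kdm5b, Kdm7a and Smarcd3 in each array (points) by population, with mean and SD as black bars; Neurog3-null cells are in red and the dotted line marks 100 on the linear scale. Chd7, Kdm5b and Kdm7a are high in endocrine progenitors and E15.5 beta cells and low in Neurog3-null cells, and Smarcd3 is low in the former and high in the latter.

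Neurog3-null cells were compared with endocrine progenitors to ask which genes depend on the factor. Of the 104 members, 30 were higher in endocrine progenitors, against 14.2% of all genes, and 10 were lower, against 18.7%. The median difference was 0.43, beside -0.10 for all genes. The higher members came from nearly all families, with 6 Smarc, 5 Kdm, 4 Kmt, 3 Chd and 3 Setd genes among them and no Cbx, Ezh or Prmt gene. The sorts also differed in other cells. All 10 macrophage and leukocyte markers were lower in endocrine progenitors, with list means of 11.73 or more in every null array and 6.37 on average in endocrine progenitors. Ptprc, which encodes the leukocyte antigen CD45 that the sort was meant to exclude, averaged 10.66 in null cells and 3.48 in endocrine progenitors. Acinar markers were lower for 3 of 4 genes, duct markers for 2 of 3, endothelial markers for 4 of 8 and proliferation markers for 7 of 9, and mesenchymal markers were higher for 3 of 8. The excess of the 3′ over the 5′ signal of Actb, which grows with RNA damage, was 1.36 in null cells and 0.54 in endocrine progenitors. For Gapdh, the other control gene, the excess was closer, at 1.35 and 1.20. The parts of these in the results of this comparison were not tested.

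Chd7 showed the largest difference among the members. It measured 9.44, 8.34, 9.36 and 9.22 in Neurog3-null cells against 11.87, 11.92 and 11.63 in endocrine progenitors. All null arrays lay far below, with a difference of 2.72 (SE 0.23, adjusted p = 5.2e-13) and 2 of 2 probes called. Null cells were also below E15.5 progenitors, which ranged from 10.02 to 10.28.

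Kdm5b measured 9.04, 8.85, 9.16 and 9.03 in null cells and 11.27, 11.30 and 11.25 in endocrine progenitors. This gap of 2.25 (SE 0.17, adjusted p = 2e-14) exceeded the spread within either group by far. It was called for 4 of 4 probes, but was smaller on the others. Their means in null cells and endocrine progenitors were 9.56 and 11.11, 7.18 and 8.29, and 5.14 and 6.58, the last pair under 100. Kdm7a measured 10.07, 8.53, 9.51 and 9.26 in null cells and differed by 2.42 (SE 0.36, adjusted p = 5e-07), with 3 of 5 probes called. Kdm1a, the lysine demethylase LSD1, measured 11.27, 10.90, 10.98 and 10.56 in null cells and 13.25, 12.98 and 13.15 in endocrine progenitors, a difference of 2.20 (SE 0.26). These demethylases were therefore all lower in the mutant sort without overlap.

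Next in size were Tet1 (1.94, SE 0.60, 2 of 4 probes called), the deacetylase Hdac2 (1.83, SE 0.48), Chd4, a NuRD motor (1.67, SE 0.27), and Smarca1 (1.62, SE 0.29). Genes higher in the null cells were led by Smarcd3, at 10.19, 10.90, 10.61 and 10.63 in these cells against 7.79, 7.73 and 8.59, a difference of -2.55 (SE 0.24, adjusted p = 2.6e-11). For this gene null cells overlapped with E15.5 progenitors (10.26 to 10.51). Hdac9 differed by -1.69, but its endocrine progenitor mean of 5.91 lies under 100, so the size is not exact. Hdac11, Prmt7, Chd1l, Prmt3, Hdac10 and Kdm6a followed at -1.29 to -1.12. Hdac10 lost its call without null replicate 1 or 2 (-0.92 and -0.94) and Kdm6a without endocrine progenitor replicate 2 (-0.85). Kdm6a turned sign with the mean of its 4 probes (0.54), and its single probes ran from -1.12 to 2.14. Xist lay between 6.49 and 12.13 in null cells (median 11.02) and between 12.31 and 12.43 in endocrine progenitors. The part of sex in the differences of the X-linked Smarca1 and Kdm6a was not tested. Among the 97 related genes 19 were higher and 9 lower in endocrine progenitors. Gadd45a (6.21) and Rcor2 (2.91), a partner of Kdm1a, were highest, and Apobec1 (-5.50), from the list of DNA methylation partners, and Smyd2 (-1.53) lowest.

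**Figure D3:**
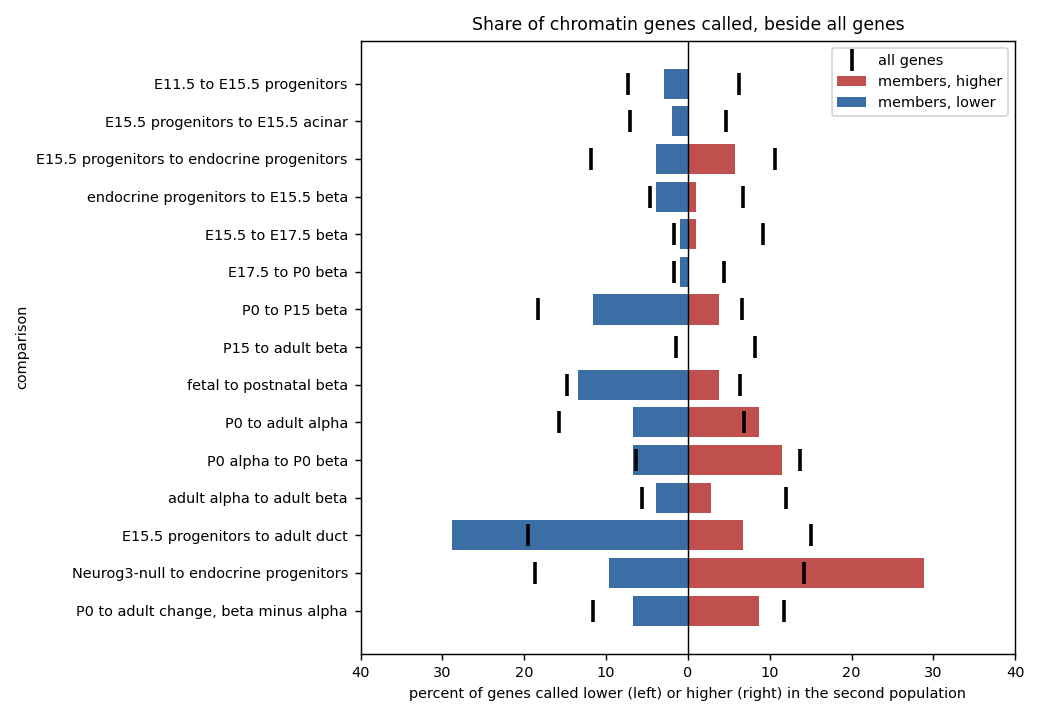
Percent of the 104 tested chromatin genes called higher (red, right) or lower (blue, left) in the second population of each of the 15 comparisons, with ticks for all 14405 genes. The bar for genes higher in endocrine progenitors than in Neurog3-null cells and the bar for genes lower in adult duct cells than in E15.5 progenitors extend far beyond their ticks of 14.2% and 19.6%, the bars for genes higher in adult than P0 alpha cells and lower in P0 beta than P0 alpha cells pass theirs slightly, and P15 against adult beta cells has no bar.

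From endocrine progenitors to E15.5 beta cells, 1 member rose, against 6.69% of all genes, and 4 fell, against 4.57%. Ezh2, the catalytic subunit of Polycomb repressive complex 2 in dividing cells, fell from 11.30, 11.27 and 11.30 to 10.19, 9.98, 9.81 and 9.69. Beta cells lay wholly below, and the difference was -1.38 (SE 0.25, adjusted p = 7.7e-05). Cbx2 fell over the same step from 9.55, 9.75 and 10.03 to 8.52, 8.65, 8.30 and 8.53, a difference of -1.28 (SE 0.21, adjusted p = 9.9e-06). Smarcd2, another BAF60 subunit, fell by 1.10 with 3 of 3 probes called, and Kdm1b by 1.03. Hdac9 rose by 1.39 from a mean under 100. The call for Kdm1b was lost without E15.5 beta cell replicate 4 (-0.97) or endocrine progenitor replicate 3 (-0.96). Among proliferation markers 1 of 9 fell, while 7 of 10 leukocyte, 6 of 8 endothelial and 5 of 8 mesenchymal markers rose, and their part was not tested. Of the 97 related genes 2 were higher and 3 lower, led by Dpf3 (1.61) and Gadd45a (-1.96).

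Little changed among these genes within fetal beta cells. From E15.5 to E17.5, 1 member rose, against 9.21% of all genes, and 1 fell, against 1.74%. Hdac7, a class II deacetylase known from endothelium and thymus, measured 7.84, 7.99, 7.87 and 8.34 at E15.5 and 10.10, 9.20 and 9.96 at E17.5. All E17.5 values lay above, and the difference was 1.74 (SE 0.17, adjusted p = 6e-10), but the second probe gave 0.07 and the mean of probes 0.91. All 8 endothelial markers rose over this step, from a list mean of 6.48 to 9.78, as did 5 of 8 mesenchymal, 5 of 10 leukocyte and 5 of 9 proliferation markers, and their part in the Hdac7 difference was not tested. Chd1 fell by 1.06 on 1 of 4 probes and lost the call without E15.5 beta cell replicate 2 (-1.00) or E17.5 replicate 3 (-0.91). From E17.5 to P0 no member rose, against 4.36% of all genes, and 1 fell, against 1.65%. That was Hdac6, from 11.96, 12.40 and 12.25 to 11.55, 10.97 and 11.05, a difference of -1.01 (SE 0.15, adjusted p = 8.4e-06). These were separate, yet the difference slipped under 2-fold without E17.5 beta cell replicate 2 or 3 or without P0 beta cell replicate 2 or 3 (-0.99 to -0.90), and 3 of 4 acinar markers rose over this step.

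More members were called between P0 and P15, an interval in which beta cells mature functionally, than in any other single step of the beta cell series. The share of all tested probes called was also largest at this step of the series, at 25.5%. Of the 104 members 4 rose, against 6.65% of all genes, and 12 fell, against 18.3%. Both shares of members lay under those of all genes (15.4% of members in all), a difference that was not tested. Without P0 beta cell replicate 2, 10 were called in all and Tet2 stood at 0.87. Tet1 and Hdac2 lost their calls without P0 replicate 2 or 3 or P15 replicate 2, 3 or 4 (Tet1 -1.49 to -1.19, Hdac2 -1.20 to -0.98). Fitted with these populations alone, Tet1 and Hdac2 also missed the test (adjusted p = 0.063 and 0.082). Probes of a gene disagreed. The second Tet2 probe gave -1.17, the other Tet1 probes gave 1.11, 0.35 and 0.21, and the second Hdac7 probe gave 0.01. Chd5 (1.64), Ezh1 (1.37), Cbx7 (1.30) and Tet2 (1.11) rose, and Smarcd3 (-2.25), Hdac7 (-1.98), Kdm3b (-1.88), Hdac9 (-1.66), Tet1 (-1.52), Kdm1a (-1.40), Hdac2 (-1.26) and Ezh2 (-1.21) fell most. All 8 endothelial and all 8 mesenchymal markers fell over the same interval, as did 8 of 10 leukocyte and 7 of 9 proliferation markers, and the list means at P0 were 10.73, 12.62, 10.53 and 10.67. What these contributed was not tested, and a comparison of E15.5 with P15 beta cells, chosen after the data were seen because these markers were lower in both than at P0, is given with the fetal and postnatal groups. The 3′ excess of Actb was 0.62 at P0 and 1.09 at P15, and that of Gapdh 1.33 and 1.62.

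From P15 to adult beta cells no member was called in limma, against 8.22% of all genes higher and 1.49% lower. At an unadjusted p under 0.05 there were 36, and 16 had an adjusted p under 0.05 with less than a 2-fold difference. With array weights 2 were called, and leaving out single arrays gave 0 to 3. All but 1 of the 10 leukocyte and 5 of 8 mesenchymal markers rose over this step, and 4 of 9 proliferation markers fell.

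Fetal beta cells (E15.5, E17.5 and P0) were set against postnatal ones (P15 and adult) with equal weight for each population. Of the 104 members, 4 were higher after birth, against 6.37% of all genes, and 14 were lower, against 14.8%. Both shares were under those of all genes (17.3% of members in all). Among the 4 called Polycomb members, Ezh2 and Cbx2 were lower and Ezh1 and Cbx7 higher after birth. The other 5 tested Cbx genes were not called (-0.58 to 0.07). Polycomb repressive complex 2 methylates histone H3 lysine 27 through Ezh2 or Ezh1, and the Cbx proteins of complex 1 bind that mark.

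Ezh2 measured 8.47 to 9.33 in P15 beta cells and 8.65 to 9.36 in adult beta cells, below every fetal beta cell array (9.69 to 10.41). The difference was -1.17 (SE 0.16, adjusted p = 5.1e-08). Ezh1 measured 9.31, 10.10, 9.44 and 9.57 at E15.5, 9.46 to 10.17 in the 3 arrays at E17.5 and 9.53, 9.34 and 9.62 at P0. After birth it measured 10.12, 11.16, 11.02 and 11.16 at P15 and 11.03, 10.90, 11.04 and 11.01 in adults. Apart from P15 replicate 1, all postnatal values lay above the fetal ones. The difference was 1.27 (SE 0.12, adjusted p = 5.5e-12), and the second probe of Ezh1 gave 0.85.

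Cbx2 measured 8.30 to 8.65 at E15.5, 8.28 to 8.56 at E17.5 and 7.82 to 7.95 at P0, and 6.58 to 6.92 at P15 and 6.23 to 6.96 in adults. Fetal and postnatal arrays did not overlap (difference -1.54, SE 0.13, adjusted p = 4.5e-13). Cbx7, its paralog in differentiated cells, measured 6.73 to 7.95 over the 10 fetal arrays and 8.41 to 9.27 over the 8 postnatal ones, again with no overlap (1.66, SE 0.12, adjusted p = 8.7e-15). In E15.5 against P15 beta cells alone Cbx2 stood at -1.80, Cbx7 at 1.89 and Ezh1 at 1.26, all 3 called, and Ezh2 at -1.00 was called at the edge of 2-fold. In that comparison mesenchymal markers still differed, with list means of 10.66 and 6.36, while those of endothelium were 6.48 and 5.96 and those of leukocytes 7.96 and 8.27. Fetal against adult beta cells, a comparison also chosen after the data were seen, left out P15 because of its Xist values. It gave Ezh2 -1.13, Cbx2 -1.53, Ezh1 1.34 and Cbx7 1.71, all called. Xist still differed there, with medians of 12.51 at E15.5, 12.35 at E17.5 and 11.98 at P0 against 5.92 in adults. The P15 median was 11.38. Leaving out P15 therefore did not remove a difference in sex, and its part was not tested. Between fetal and postnatal beta cells 8 of 8 endothelial and 8 of 8 mesenchymal markers fell (medians -3.15 and -5.18), as did 7 of 9 proliferation markers, and Mki67 fell by 1.04. The 3′ excess of Actb was 0.60 to 0.66 in the fetal populations and 1.05 to 1.09 in the postnatal ones. That of Gapdh was 1.02 to 1.33 and 1.62 to 1.70. The parts of these were not tested.

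Alpha and duct cells were examined for the same genes. In alpha cells Ezh2 fell from 10.71, 10.27, 10.17 and 10.40 at P0 to 7.61, 9.50, 8.23, 7.68 and 7.64 in adults, a difference of -2.26 (SE 0.22, adjusted p = 6.9e-11). Adult replicate 2 was the highest of these, and no adult value reached those at P0. Cbx7 rose from 7.75, 8.82, 8.49 and 8.06 to 9.91, 10.03, 9.52, 9.46 and 9.39 (1.38, SE 0.17, adjusted p = 1.2e-08), without overlap. Cbx2 was already low in P0 alpha cells (7.11 to 7.33) and differed by -0.40 (adjusted p = 0.063), and Ezh1 differed by 0.43 (adjusted p = 0.028), under 2-fold, while its second probe gave 1.61. In adult duct cells, compared with E15.5 progenitors, Ezh1 differed by 1.62 with 2 of 2 probes called, Ezh2 by -1.45 and Cbx2 by -2.45, and Cbx7 was not called (0.70, adjusted p = 0.0023).

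Of the Polycomb partners, 9 subunits or cofactors of complex 2 and 12 of complex 1 were tested. None of the former passed the test between fetal and postnatal beta cells, and 4 of the latter fell and none rose. The mean level of the complex 2 partners lay between 10.55 and 10.87 in all 13 populations.

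The upstream sequences of both Ezh genes are printed because Ezh2 was lower and Ezh1 higher after birth. They are again the 250 bases before the RefSeq start on GRCm38.p6 with CpG in capitals. The Ezh2 window is chr6:47595031-47595280 and the Ezh1 window is chr11:101226464-101226713, both on the minus strand.
Ezh2: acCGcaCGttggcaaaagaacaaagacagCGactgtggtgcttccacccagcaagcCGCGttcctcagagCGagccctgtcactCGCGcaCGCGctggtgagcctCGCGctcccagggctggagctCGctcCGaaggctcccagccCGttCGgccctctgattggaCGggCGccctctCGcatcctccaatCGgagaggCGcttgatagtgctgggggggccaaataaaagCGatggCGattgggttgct
Ezh1: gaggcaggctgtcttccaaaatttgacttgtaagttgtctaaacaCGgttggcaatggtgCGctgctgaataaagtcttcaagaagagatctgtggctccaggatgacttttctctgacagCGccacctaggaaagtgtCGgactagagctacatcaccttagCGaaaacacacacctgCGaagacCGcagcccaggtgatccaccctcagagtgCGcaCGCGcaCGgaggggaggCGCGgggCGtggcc
Ezh2 had 23 CpG and Ezh1 14, with 63.6% and 55.2% G and C. The CCAAT motif, which was in 33.85% of all windows and 33.88% of the members' windows, was found in the Ezh2 window and not in that of Ezh1. Motifs of the kind bound by E2F cell cycle factors (TTTCCCGC, TTTCGCGC, TTTGCCGC or TTTGGCGC) were in 1.86% of all windows and 4.96% of the members' windows, and were in neither of the Ezh windows. A match describes letters and not a bound site.

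**Figure D4:**
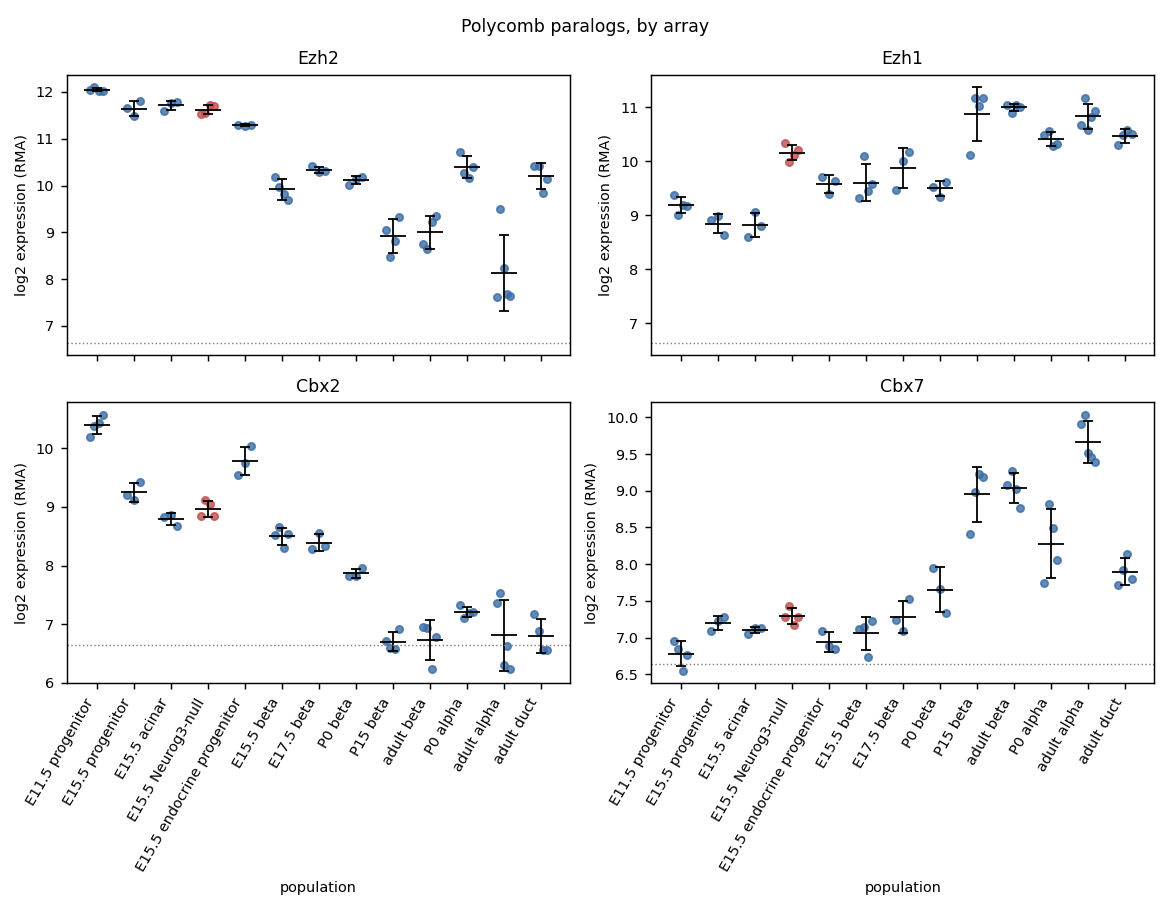
Log2 expression of Ezh2, Ezh1, Cbx2 and Cbx7 in each array (points) by population, with mean and SD as black bars, Neurog3-null cells in red and a dotted line at 100 on the linear scale. Ezh2 and Cbx2 are highest in E11.5 progenitors and low in P15 and adult islet cells, while Ezh1 and Cbx7 are low in the embryonic progenitors and acinar cells.

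Other genes higher in postnatal beta cells were Chd5 (1.74, SE 0.18) and Kdm2b (1.02, SE 0.07), a demethylase that recruits a variant Polycomb complex to CpG islands. Kdm2b measured 10.69 to 11.24 in fetal arrays and 11.81 to 12.23 in postnatal arrays, without overlap and with 2 of 2 probes called, but stood at 0.93 in E15.5 against P15 beta cells alone and slipped under 2-fold without adult replicate 4 (0.999) or E17.5 replicate 3 (0.976). Those that fell most were Tet1 (-2.26, SE 0.38), Kdm3b (-2.04, SE 0.28), Hdac2 (-1.89, SE 0.30), Kdm1a (-1.58, SE 0.16), Kdm7a (-1.39, SE 0.23), Prmt1 (-1.31, SE 0.08) and Hdac7 (-1.21, SE 0.11), beside Cbx2.

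Prmt1, the main arginine methyltransferase of mammalian cells, measured 11.79 to 12.29 in fetal arrays and 10.22 to 11.58 in postnatal arrays. They did not overlap, and P15 replicate 1 at 11.58 stood apart from 10.79 to 10.85 in its group. Kdm1a measured 12.92, 13.01 and 12.86 at P0, 12.38, 11.62, 11.33 and 10.79 at P15 and 11.05, 11.25, 10.80 and 10.45 in adults, and both probes were called. P15 replicate 1 overlapped with fetal cells, as it exceeded the lowest E17.5 array (12.26). Probes of a gene disagreed for Tet1, where 1 of 4 was called (0.05 to -2.26), for Kdm7a, where 1 of 5 was, and for Hdac7, where 1 of 2 was. Hdac7 lost its call in E15.5 against P15 beta cells alone (-0.10, adjusted p = 0.65). In that comparison 3 members were higher and 16 lower, and in fetal against adult beta cells 5 and 17. Among members on the sex chromosomes, Kdm5c, Kdm5d and Kdm6a were not called between fetal and postnatal beta cells (-0.06, 0.72 and 0.29). Hdac6, Hdac8 and Smarca1 lie on the X chromosome as well. Among the 97 related genes 1 was higher after birth, Apobec1 at 4.16, and 14 were lower, led by Uhrf1 (-2.26) and the corepressor subunit Sap30 (-2.25).

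Alpha cells changed between P0 and adulthood in 16 members. Of these 9 rose, against 6.87% of all genes, and 7 fell, against 15.7%. Those that rose were Kdm5d, Smarca4, Hdac11, Cbx7, Prmt2, Hdac6, Sirt2, Sirt7 and Setd4, and those that fell were Ezh2, Chd7, Prmt6, Hdac2, Kdm3b, Hdac9 and Brd3. Chd7 measured 10.95, 10.38, 10.70 and 10.94 at P0 and 8.16, 8.59, 8.58, 9.10 and 9.33 in adults. No adult value reached those at P0, and the difference was -1.99 (SE 0.20, adjusted p = 7.3e-11), though its second probe gave 0.07.

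Smarca4, the BRG1 motor of the BAF complex, measured 9.11, 8.88, 8.55 and 7.82 at P0 and 10.44, 10.24, 10.30, 9.88 and 10.40 in adults (1.66, SE 0.20, adjusted p = 9.4e-09, 1 of 2 probes). Hdac11 rose by 1.47 and Prmt2 by 1.23, each with 2 of 2 probes called. Hdac11 thus moved in the direction opposite to that at endocrine entry. Prmt6, a methyltransferase of histone H3 arginine 2, fell by 1.98 on 1 probe while the other gave 0.92. Without adult replicate 2, Brd3 (-0.86), Hdac2 (-0.67) and Sirt2 (0.95) lost their calls, as did Sirt7 without adult replicate 1 (0.98). Hdac2 also missed the test when these populations were fitted alone (adjusted p = 0.13).

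Kdm5d lies on the Y chromosome. It measured 5.04, 8.26, 8.82 and 8.84 at P0 and 9.81, 9.32, 9.81 and 9.63 in adult alpha cell replicates 1 to 4, with replicate 5 slightly above. All adult values were above those at P0, where replicate 1 stood far below the others. Xist lay between 12.09 and 12.46 in P0 and between 5.80 and 7.01 in adult alpha cells. The Y-linked Eif2s3y had a lowest value of 6.19 and a median of 11.29 at P0, against 12.04 to 12.21 in adults. Hdac6, which rose as well, lies on the X chromosome. What the sex of the pooled animals contributed to the Kdm5d difference of 1.97 or to that of Hdac6 was not tested. Endothelial and mesenchymal markers fell for 8 of 8 genes each, leukocyte markers for 7 of 10, duct markers for 3 of 3 and proliferation markers for 8 of 9, and Mki67 fell by 3.24. The 3′ excess of Actb was 1.16 at P0 and 1.96 in adults, and that of Gapdh 1.24 and 1.72. Related genes numbered 6 higher and 11 lower, with Actl6b (2.01), Phf1 (1.24), Uhrf1 (-3.79) and Hells (-2.54) at the ends.

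Beta and alpha cells were compared at both ages. At P0, 12 members were higher in beta cells, against 13.7% of all genes, and 7 were lower, against 6.39%. In adults 3 were higher, against 12%, and 4 lower, against 5.61%. Smarca1 was higher in alpha cells at both ages. It measured 11.63, 12.35, 12.40 and 11.71 in P0 alpha cells and 9.81, 10.15 and 10.35 in P0 beta cells (-1.92, SE 0.29, adjusted p = 9.1e-07). In adults it measured 12.09, 11.71, 11.90, 11.87 and 11.92 in alpha cells and 9.82, 10.07, 9.78 and 9.22 in beta cells (-2.18, SE 0.25, adjusted p = 3.3e-09). No alpha array overlapped with a beta array of its age. Adult duct cells had the lowest values of all, at 6.83, 7.55, 6.88 and 5.81.

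Kdm6a, an X-linked demethylase of histone H3 lysine 27, was also lower in beta cells, at -1.87 at P0 and -1.65 in adults. Its probes disagreed, with 0.60 and 1.17 on another probe, and the mean of its 4 probes gave -0.73 and -0.26. Smarca4 was higher in beta cells by 3.10 at P0 (11.77, 11.67 and 11.65 against 9.11, 8.88, 8.55 and 7.82) and by 1.12 in adults. Alpha and beta arrays were separate at both ages, but the second probe of Smarca4 gave 0.34 and 0.12.

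At P0, Hdac7 (1.76), Kdm1a (1.56), Smarcd3 (1.54), Kmt5c (1.43), Chd2 (1.42), Smarcd1 (1.39) and Smarcc2 (1.24) were further higher in beta cells. Chd5 (-2.02), Chd1 (-1.17), Dnmt1 (-1.04), Kmt5a (-1.03) and Prmt3 (-1.02) were higher in alpha cells. With the mean of a gene's probes Chd1 (-0.48), Dnmt1 (-0.75), Kmt5a (-0.63), Prmt3 (-0.53), Hdac7 (0.95) and Chd2 (0.99) were not called. Dnmt1 slipped under 2-fold without P0 beta cell replicate 1 (-0.99), Kmt5a without P0 beta cell replicate 3 (-0.99) and Prmt3 without P0 alpha cell replicate 1 or 4 or P0 beta cell replicate 1 (-0.97 to -0.95). Kdm5b measured 10.43, 10.24 and 10.29 in P0 beta cells against 9.32, 9.17, 9.46 and 9.24 in P0 alpha cells, a difference of 1.02 that turned to -0.32 with the mean of its 4 probes, 1 of which was called lower, and fell short of 2-fold without P0 alpha cell replicate 2 (0.98) or P0 beta cell replicate 1 (0.97). In adults Chd7 was higher in beta cells by 1.15 (SE 0.20, adjusted p = 8.1e-06), at 9.59, 9.96, 10.10 and 9.98 against 8.16, 8.59, 8.58, 9.10 and 9.33, with 2 of 2 probes called and no overlap. Tet3 was higher by 1.08, or 0.98 without adult beta cell replicate 4. Hdac6 (-1.22) and Setd4 (-1.34) were lower, with Hdac6 at 11.25 to 11.55 against 12.59 to 12.75. Leukocyte markers were higher in beta cells for 9 of 10 genes at P0 and 10 of 10 in adults, and endothelial markers for 6 of 8 at P0 and 1 of 8 in adults. Mesenchymal markers were higher for 5 of 8 at P0 and 4 of 8 in adults, and in adults so were 3 of 3 duct and 3 of 4 acinar markers. The 3′ excess of Actb was 1.16 in alpha and 0.62 in beta cells at P0, and 1.96 and 1.05 in adults. That of Gapdh was 1.24 in alpha and 1.33 in beta cells at P0, and 1.72 and 1.70 in adults. The parts of these were not tested. Among the related genes 10 were higher and 3 lower in beta cells at P0 and 2 each in adults. Men1, which encodes the islet tumor suppressor menin, was higher by 1.57 at P0, beside Sap30 (1.77), Hells (-1.50) and Rsf1 (-1.24), and adults showed Apobec1 (2.87), Baz1a (1.66), Bcl7c (-1.55) and Pcgf2 (-1.29).

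The change from P0 to adult was then compared between both islet cell types with an interaction term. It differed for 16 members, with 9 more positive in beta cells, against 11.8% of all genes, and 7 more negative, against 11.6%. The adult minus P0 value of Hdac7 was -1.78 in beta cells and 0.80 in alpha cells, a difference of -2.59 (SE 0.23, adjusted p = 2.8e-11). Smarcd3 stood at -1.26 and 0.76 (difference -2.03) and Smarca4 at -0.32 and 1.66 (-1.99), while Kdm1a stood at -2.04 and -0.38 (-1.66). Chd7 stood at -0.65 in beta and -1.99 in alpha cells (1.34), and Ezh2 at -1.12 and -2.26 (1.13), so that both were lower in adults in each cell type, and by more in alpha cells. With these populations fitted alone the calls of Ezh2 (adjusted p = 0.097) and Prmt6 (adjusted p = 0.078) were lost. Kdm2b stood at 1.11 and -0.14 (1.26, 2 of 2 probes called). For Hdac4 (1.56), Prmt6 (1.43), Chd7, Dnmt3a (1.25), Prmt3 (1.10), Ezh1 (1.07), Hdac7 and Smarca4 a single probe carried the call. The second probe of Ezh1 gave -0.83, that of Prmt6 -1.39 and that of Chd7 -0.15, and Dnmt3a turned to -0.02 with the mean of its probes. Another Dnmt3a probe ran the other way, from 11.60 at P0 to 10.30 in adult beta cells and from 9.16 to 9.38 in alpha cells. Chd5 (1.20) lost its call without adult beta cell replicate 1 (0.997) or P0 beta cell replicate 3 (1.01). The leukocyte list changed differently as well, with 10 of 10 markers more positive in beta cells, while 6 of 8 endothelial markers were more negative. Among the 97 related genes 6 were more positive in beta cells and 12 more negative, led by Apobec1 (2.05), Baz1a (1.48), Sap30 (-2.20) and Kat2a (-1.51).

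**Figure D5:**
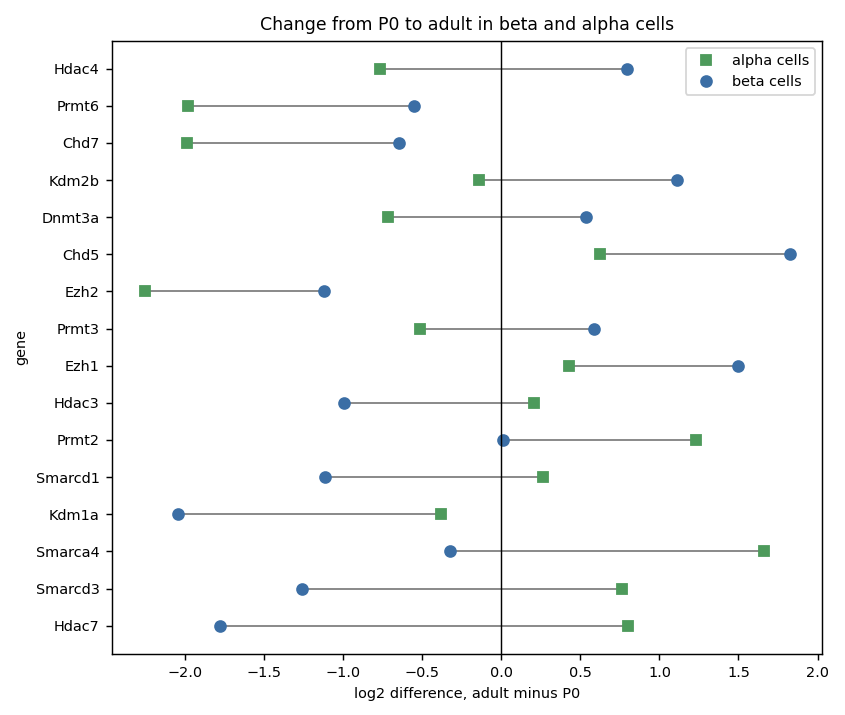
Log2 difference between adult and P0 cells in beta cells (circles) and alpha cells (squares) for the 16 chromatin genes whose change differed between both. Hdac7 has the widest gap, from -1.78 to 0.80, and Ezh2 and Chd7 lie left of 0 in both cell types.

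Adult duct cells and E15.5 progenitors both express Sox9, and duct cells are the adult epithelium nearest to embryonic progenitors. Of the 104 members 7 were higher in duct cells, against 15.1% of all genes, and 30 were lower, against 19.6%. The median difference was -0.34, beside -0.16 for all genes. Smarca1 fell most, from 9.97, 9.93 and 10.38 to 6.83, 7.55, 6.88 and 5.81 (-3.33, SE 0.29, adjusted p = 9.5e-13). Tet1 (-2.55, 4 of 4 probes called), Cbx2 (-2.45), Kdm1a (-2.13, 2 of 2 probes), Prmt1 (-2.07), Prmt6 (-1.96, 2 of 2 probes), Kdm8 (-1.85) and Sirt4 (-1.81) followed. Prmt1 measured 12.52, 12.39 and 12.56 in progenitors and 10.23, 10.40, 10.56 and 10.51 in duct cells, without overlap. By family 7 of 13 Smarc genes, 4 of 7 Prmt genes, 3 of 17 Kdm, 3 of 11 Hdac and 3 of 7 Sirt genes were lower, and no Smarc or Prmt gene was higher.

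Hdac5 (1.84), Ezh1 (1.62), Hdac9 (1.18), Kdm6b (1.15), Kdm6a (1.09), Brd2 (1.09) and Sirt2 (1.05) were higher in duct cells. Hdac5 measured 7.68, 7.74 and 7.80 in progenitors and 9.40, 9.43, 9.76 and 9.73 in duct cells, with no overlap. Hdac9 lost its call without duct cell replicate 1 (0.94) or E15.5 progenitor replicate 2 (0.97), Brd2 without E15.5 progenitor replicate 3 (0.92) and Kdm6a without E15.5 progenitor replicate 1 (0.85). With the mean of a gene's probes Brd2 (0.31) and Kdm6a (0.67) were not called, and the second Brd2 probe averaged 8.52 in progenitors and 8.05 in duct cells. The progenitor and duct means of Hdac9 both lie under 100. All 9 proliferation markers were lower in duct cells and all 10 leukocyte markers higher, with list means of 8.69 and 12.23, as were 4 of 8 endothelial markers, and their part was not tested. Xist lay between 11.97 and 12.35 in E15.5 progenitors and between 5.28 and 5.60 in duct cells. Smarca1 and Kdm6a are X-linked, and the part of sex was not tested. The 3′ excess was 0.53 in progenitors and 0.55 in duct cells for Actb, and 0.80 and 1.43 for Gapdh. Of the related genes 4 were higher and 22 lower, with Apobec1 (5.96) and Gadd45b (2.90) against Uhrf1 (-3.54) and Rcor2 (-3.35).

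Levels of Chd7 and Kdm5b over all populations can be ordered within each gene for the brightest probe, but other probes gave other orders. By mean, Chd7 was highest in endocrine progenitors (mean 11.81) and E15.5 beta cells, followed by E17.5 beta cells (11.30), E11.5 progenitors (10.83), P0 alpha cells (10.74), P15 beta cells (10.73) and P0 beta cells (10.55). It was lowest in adult alpha cells (8.75), Neurog3-null cells (9.09) and duct cells (9.15). The middle populations overlapped in their arrays and cannot be ranked among themselves. On the second Chd7 probe P0 alpha cells were lowest (8.97), followed by adult alpha cells (9.04), and Neurog3-null cells stood at 9.59. Kdm5b was highest in endocrine progenitors (11.27), E11.5 progenitors (11.19) and E15.5 beta cells (11.02), and lowest in Neurog3-null cells (9.02), P0 alpha cells (9.30) and adult alpha cells (9.48). Another Kdm5b probe gave 10.38 in P0 alpha cells and was lowest in adult beta cells (9.10). The dimmer Kdm5b probes were lowest in acinar cells (6.56 and 4.78, both under 100). In beta cells the means were 11.02 at E15.5, 10.19 at E17.5, 10.32 at P0, 10.15 at P15 and 9.71 in adults, and the fetal to postnatal difference of -0.58 (SE 0.10) was under 2-fold.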

How the data were processed

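Purified populations were profiled on Affymetrix mouse expression arrays, from PicoPure RNA amplified with NuGEN reagents. The authors deposited 1 log2 value per probe set and array, normalized together by RMA in R 2.11.1. Names came from the platform annotation, with 34958 of 45101 probes carrying 1 symbol, 932 several and 9211 none, and all 107 symbols were found unchanged in RefSeq on GRCm38.p6.

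Here limma 3.58.1 in R 4.3.3 fitted 13 population means to all 48 arrays over the 32078 probes above 100 (linear) in at least 1 array. P-values were adjusted by Benjamini-Hochberg over all these probes. Background shares were counted over the brightest probe of each of 14405 genes. The members and the gene lists were chosen with earlier results of these data known. The rule for named genes took Chd7 and Kdm5b, up to 8 called members in each direction by size, the member of each family with the widest range over the 12 wild-type populations, Neurog3 and Mki67 as checks, and the 2 most changed related chromatin genes in each direction. Other values of Polycomb genes, and smaller differences named beyond these, were chosen after their values were seen. Alternatives were other filters, quantile normalization, array weights, the mean of a gene's probes, the methods' t-test, the populations compared alone, the replicate number as a block and leaving out each array.

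Replicate numbers come from the labels, which do not say what they share. By the correlation of deviations between same-numbered arrays, only E11.5 and E15.5 progenitors passed the check for pairing (0.106, 0.118 and 0.148). These cells came from different transgenes and stages, so the numbers cannot mark shared animals there. E15.5 progenitors and endocrine progenitors did not pass, at 0.05 to 0.30. The fit was tested on simulated data with known changes.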

Additional observations from a re-analysis of the deposited data

Results flagged for a closer look

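In P15 beta cells replicate 1 stood apart from the other 3 arrays for 3 genes, by its gap relative to the range of the group. Brd3 was 11.61 there against a lowest value of 10.90 among the others, Kdm3b 9.28 against 7.65 to 7.91, and Prmt1 11.58 against 10.79 to 10.85. Prmt1 was also 12.88 in E11.5 progenitor replicate 2 against 12.73 in each of the other 3. These are 4 of 120 groups of 4 or 5 arrays tested, over the widest-ranging member of each family, Chd7 and Kdm5b, and chance alone gives about 1 in 20.

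The change from P0 to adulthood differed between beta and alpha cells, by the limma interaction term, for 16 members. It was more positive in beta cells for Hdac4 (1.56, adjusted p = 1.5e-05), Prmt6 (1.43, 0.0037), Chd7 (1.34, 0.00057), Kdm2b (1.26, 4.5e-08), Dnmt3a (1.25, 0.00077), Chd5 (1.20, 0.014), Ezh2 (1.13, 0.0085), Prmt3 (1.10, 3.8e-05) and Ezh1 (1.07, 0.00095). It was more negative for Hdac3 (-1.20, 5.4e-05), Prmt2 (-1.22, 0.00016), Smarcd1 (-1.38, 8e-07), Kdm1a (-1.66, 0.00026), Smarca4 (-1.99, 3.6e-06), Smarcd3 (-2.03, 6.6e-06) and Hdac7 (-2.59, 2.8e-11).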

How the results depend on the processing

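Of 2267 values of named genes under alternative settings, 2145 kept their direction and call, 117 kept the direction and lost the call and 5 changed sign. The latter all came from averaging a gene's probes, which gave -0.024 for Dnmt3a in the maturation difference, -0.32 for Kdm5b in P0 alpha against beta cells, 0.54 for Kdm6a in Neurog3-null cells against endocrine progenitors, and 0.039 for Tet1 and -0.031 for Tet2 from P0 to P15. Probes of a gene can read different transcripts, and the cause was not tested. Counts of called members moved by over 1.5 times in the small comparisons. With quantile normalization 5 were called from E11.5 to E15.5 progenitors and 1 from P15 to adult beta cells. The mean of probes gave 0 from E15.5 to E17.5, 2 from E17.5 to P0 and 1 from P15 to adult, and array weights gave 2 from P15 to adult. The methods' t-test gave 0 from E17.5 to P0. Leaving out single arrays gave 2 to 6 from E11.5 to E15.5 progenitors, 0 to 2 from E17.5 to P0, 10 to 19 from P0 to P15 and 0 to 3 from P15 to adult. With the replicate block 0 were called from E17.5 to P0 and 9 from P0 to P15, where the numbers are not known to pair samples. No other count moved by over 1.5 times under the block. Under the block the maturation calls of Ezh2 and Prmt6 were lost (adjusted p = 0.18 and 0.11), as were Tet1, Hdac2, Kdm3b, Cbx7 and Tet2 from P0 to P15 (0.053 to 0.24), Kdm5d and Hdac2 from P0 to adult alpha cells (0.081 and 0.094) and Hdac6 from E17.5 to P0 (0.11). Kdm1b from endocrine progenitors to E15.5 beta cells and Prmt3 in P0 alpha against beta cells slipped under 2-fold (both -0.97). Values under 100 on the linear scale are near background, and their differences have no exact size.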
